A study of Mus musculus with 72 samples.

Results

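The 32 genes described here encode the glutamate receptors of the mouse brain and the auxiliary subunits that travel with them: 7 NMDA receptor subunits, 4 AMPA receptor subunits, 5 kainate and delta receptor subunits, 6 metabotropic glutamate receptors and 10 auxiliary subunits. They were chosen by gene symbol, with earlier results of these data known. All 32 were matched to Ensembl identifiers among the 55401 genes of the count table. RNA of the hippocampus was sequenced separately for its dorsal part (DH) and its ventral part (VH) in male C57BL/6 mice of 2 substrains, labelled 6J and 6NJ. Mice of the HomeCage groups were taken from the home cage, those of the Cue groups were exposed to the cue alone, and those of the Shock_Cue groups received fear conditioning, with tissue of the Cue and Shock_Cue groups taken 30 min afterwards. The 2 regions, 2 strain labels and 3 conditions gave 12 groups of 6 libraries, 72 in all, with 36 libraries for each region. The labels do not say whether each library comes from 1 mouse, so p-values measure the spread between these libraries. No transgene or drug is named in the labels, and the age of the mice is not given in the sources used here. Levels are given as CPM, the usual count relative to a library total, here scaled by TMM, and per kilobase of exon (CPM per kb) where genes are set against each other.

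Glutamate carries most fast excitation in the hippocampus. AMPA, kainate and NMDA receptors are ion channels built from several subunits each, metabotropic receptors signal through G proteins, and delta receptors act mainly as synaptic adhesion partners. AMPA receptors give the fast synaptic current and NMDA receptors admit calcium when presynaptic release coincides with depolarisation, the trigger for long-term potentiation in the CA1 field. Auxiliary subunits bind the channels, bring them to synapses and set how quickly they close, so that the mix of subunits decides the shape of the synaptic response. The dorsal hippocampus is best known for spatial and contextual memory and the ventral hippocampus for anxiety-related behaviour.

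Every AMPA receptor gene also carries a pair of neighbouring exons, flip and flop, of which a transcript usually keeps a single member. They encode the end of the ligand-binding domain, and receptors with the flip or the flop version differ in how fast they desensitise. The exons of Gria4 and Gria2 are shown because the share of estimated counts assigned to their flop transcripts differed between DH and VH. They lie on the minus strand of GRCm38 and were read from the annotated transcripts, and capitals mark the bases at which flop and flip of the same gene differ. The Gria4 exons (flop chr9:4432773-4432887, flip chr9:4427030-4427144) differ at 31 bases and the Gria2 exons (flop chr3:80691320-80691434, flip chr3:80690404-80690518) at 36.
Gria4 flop: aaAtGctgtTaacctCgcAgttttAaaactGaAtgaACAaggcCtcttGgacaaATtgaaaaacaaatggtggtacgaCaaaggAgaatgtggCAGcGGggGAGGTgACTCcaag
Gria4 flip: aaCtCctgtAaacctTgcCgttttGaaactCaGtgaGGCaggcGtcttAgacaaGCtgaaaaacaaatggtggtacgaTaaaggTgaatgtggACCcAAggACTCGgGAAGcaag
Gria2 flop: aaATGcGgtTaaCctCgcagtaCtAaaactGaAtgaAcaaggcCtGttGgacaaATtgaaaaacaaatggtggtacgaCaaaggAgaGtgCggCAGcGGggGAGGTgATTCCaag
Gria2 flip: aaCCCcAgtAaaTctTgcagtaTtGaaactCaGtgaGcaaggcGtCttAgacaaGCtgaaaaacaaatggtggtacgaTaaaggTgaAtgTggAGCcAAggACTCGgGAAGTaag

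Library totals ranged from 30330382 to 56258370 gene counts, and each library held at least 160962 counts of the 32 genes. Hippocampal markers were present in every library, and 5 of 6 ventral markers were lower in DH. Of 5 markers listed as dorsal, Wfs1, Lct and Spink8 were higher in DH. The other dorsal markers, Gpc3 and Ccn3, were lower in DH, at log2 fold changes of -0.77 and -1.10. The DH library 40A of the 6NJ Cue group stood among the VH libraries for several ventral markers. Trhr was 8.96 CPM against at most 3.20 CPM in the other DH libraries, and Dcn was 49.7 against at most 24.97 CPM. Results that rest on DH are therefore also given without DH library 40A where its removal changed them. Ventral markers summed to 151 CPM in DH library 40A and 156 CPM in VH library 40A. That sum ranged from 33.6 to 157 CPM in DH (median 57.2 CPM), with the highest value in a library other than 40A. In VH it ranged from 109 to 287 CPM (median 225 CPM). By the sum alone, 40A was therefore not the only DH library within the VH range. For Grin3a, Grin2d, Gria4, Grik1, Grin2a and Cacng8, 40A was the 1 code of 36 in which DH and VH stood in the reverse order. Nnt, which is partly deleted in C57BL/6J, was 34.3 to 44.1 CPM in libraries labelled 6J and 18.4 to 22.9 CPM in those labelled 6NJ. Gabra2, known to be low in C57BL/6J, was 219.7 to 330.1 CPM in libraries labelled 6J and 91.2 to 159 CPM in those labelled 6NJ. Both go against the strain labels, so every strain direction below is a direction between labels. Lcn2, an acute-phase gene, exceeded 2 CPM in both regions of 6 codes, 4 in the 6J Cue group and 2 in the 6J HomeCage group, and results were also computed without them. Each library carries a code such as 40A that a DH and a VH library share, and each of the 12 code numbers belongs to 1 strain label and 1 condition, with 2 numbers in each such group.

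The first comparison asked how the receptor set differs between the poles of the hippocampus. DH and VH differed in most of it, with 14 genes higher in DH and 14 lower among the 31 tested (edgeR quasi-likelihood test, Benjamini-Hochberg adjusted p under 0.05 over 20255 genes). The remaining member, Grin3b, lay at 0.0265 to 0.306 CPM in the 72 libraries and did not pass the low-count filter. The 28 calls are 90.3% of the genes tested, beside 63.6% of all genes tested (32.7% higher in DH and 30.9% lower). The median size of the log2 fold change was 0.27 for the set and 0.13 for all genes, and 5 of 31 genes tested, Grin3a, Grik1, Neto1, Gria4 and Grm8, differed by more than 1.4-fold. VH held more of Grin3a, Grik1, Neto1, Gria4, Grm8, Cnih3 and Grin2d, and DH held more of Grin2a, Cnih2 and Cacng8. In bulk tissue fewer cells of a type and less RNA per cell cannot be told apart.

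**Figure D1:**
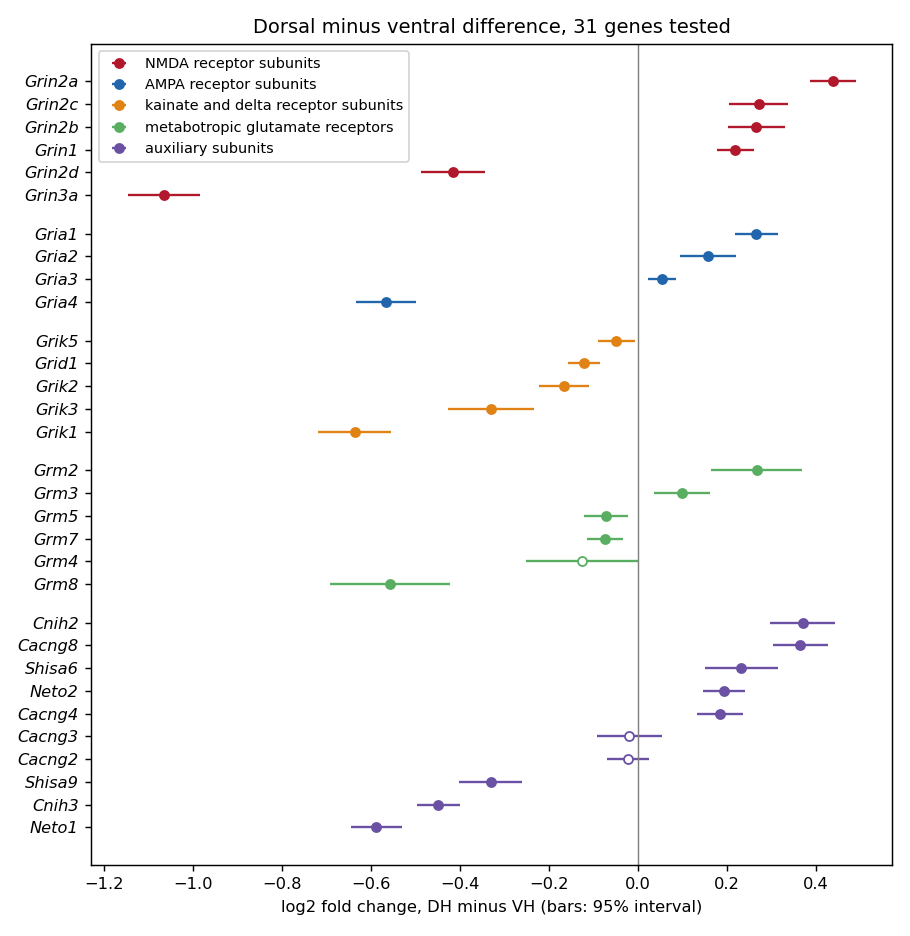
Log2 fold change of DH minus VH for the 31 genes tested, by receptor family. Points are estimates over 72 libraries, bars are 95% intervals, filled points passed an adjusted p of 0.05 and open points did not. All 5 kainate and delta subunits lie below 0, while the other families hold members on both sides.

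Among the NMDA receptor subunits, 4 were higher in DH and 2 in VH. The largest regional difference of the whole set was that of Grin3a (ENSMUSG00000039579, chr4:49661611-49845744, minus strand), which encodes a glycine-binding subunit that lowers calcium flow through the receptor. Its lowest, median and highest levels were 21.7, 25.9 and 43.9 CPM in DH and 42.9, 55.8 and 64.9 CPM in VH. The highest DH value was that of library 40A, and the other 35 DH libraries reached at most 35.9 CPM, below every VH library. The log2 fold change of DH minus VH was -1.06 (SE 0.0407, adjusted p = 2.83e-32), or 2.09-fold lower in DH, and between -1.16 and -0.91 within the 6 groups of strain label and condition, each past the threshold. Grin2d (ENSMUSG00000002771, chr7:45831883-45878378, minus strand), whose subunit gives slow receptors found largely in interneurons, was also lower in DH. Its levels were 8.70, 11.7 and 16.9 CPM in DH and 11.98, 16.3 and 22.9 CPM in VH, with the DH library above the VH library in 1 of 36 codes. On the log2 scale Grin2d differed by -0.42 (SE 0.0361, adjusted p = 1.99e-16).

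Grin2a (ENSMUSG00000059003, chr16:9567898-9995560, minus strand), which encodes the main glutamate-binding subunit of mature forebrain receptors, showed the opposite order. Its levels were 306, 386 and 466.4 CPM in DH and 249, 287 and 346 CPM in VH, and the DH library was the higher in 35 of 36 codes. The fold change was 0.44 (SE 0.0258, adjusted p = 2.7e-24) on the log2 scale. Grin2c (ENSMUSG00000020734, chr11:115249169-115267243, minus strand), a subunit best known from cerebellar granule cells and astrocytes, was at 42.8, 51.4 and 62.1 CPM in DH and 34.6, 43.5 and 57.8 CPM in VH, ranges that overlapped widely, with a log2 fold change of 0.27 (SE 0.0329, adjusted p = 6.34e-11). Grin1, the subunit every NMDA receptor needs, and Grin2b, the slower partner of early development, were higher in DH by 0.22 and 0.27 on the log2 scale. Per kilobase, Grin1 was the most abundant subunit transcript in both regions, with medians of 49.4 CPM per kb in DH and 42.1 in VH. Grin2b (22.9 in DH, 18.6 in VH) and Grin2a (21.5 and 16.03) came next, then Grin2c (10.2 and 8.64), all in CPM per kb. In VH Grin3a (4.55 CPM per kb) lay above Grin2d (2.46), while in DH both were near 2 CPM per kb (2.11 and 1.76). The ratio of Grin2a to Grin2b per kilobase had a lowest, median and highest value of 0.785, 0.986 and 1.16 in DH and 0.727, 0.851 and 1.08 in VH. Those ranges overlapped, so in single libraries the ratio did not separate the regions.

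**Figure D2:**
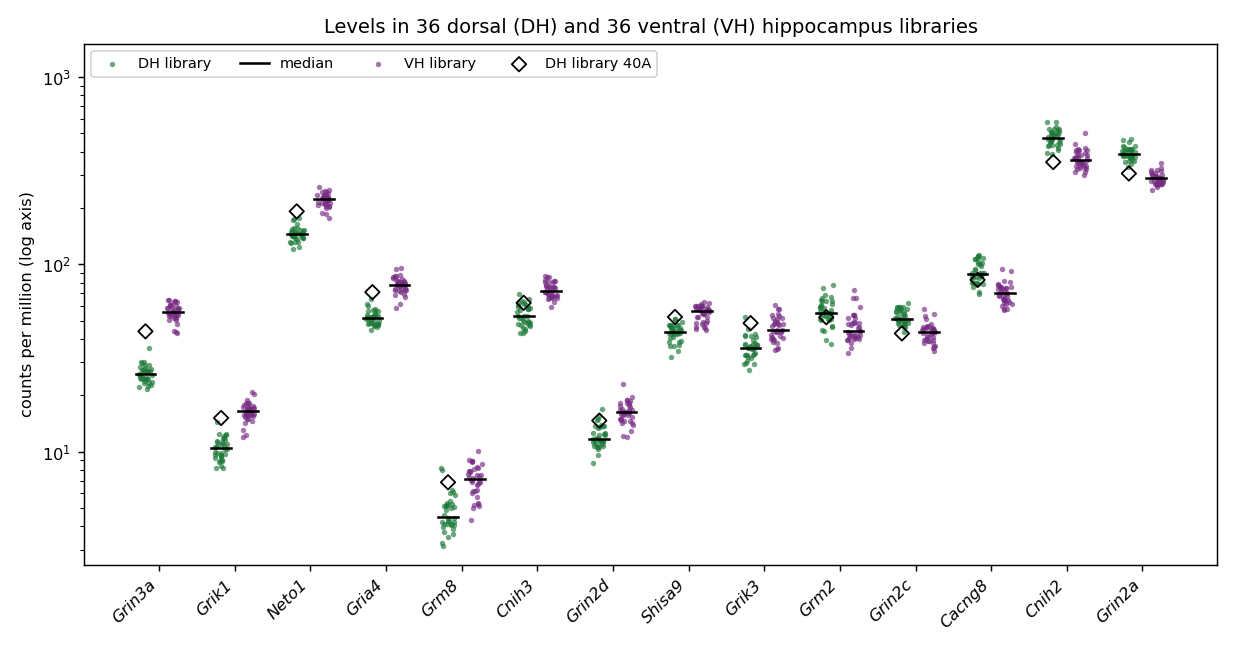
Levels of the 14 genes with the largest DH-to-VH differences, in CPM on a log axis, in 36 DH and 36 VH libraries. Points are libraries, lines are medians and the diamond is DH library 40A, which lies nearer to the VH median than to the DH median for most of the genes plotted, Grm2 and Cacng8 being among the exceptions.

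The AMPA receptor subunits split in the same way, with 3 higher in DH and Gria4 higher in VH. Gria4 (ENSMUSG00000025892, chr9:4417896-4796234, minus strand) encodes a fast subunit that is prominent in interneurons. Its lowest, median and highest levels were 44.7, 51.9 and 71.1 CPM in DH and 58.9, 77.9 and 95.2 CPM in VH, and a single code of 36 had the higher value in DH. On the log2 scale Gria4 differed by -0.57 (SE 0.0335, adjusted p = 8.68e-24). Gria1 and Gria2, the main subunits of pyramidal cells, were higher in DH by 0.27 and 0.16 on the log2 scale, and Gria3 by 0.05 (adjusted p = 0.00215). Gria1 levels were 859.9, 1096 and 1237 CPM in DH and 789, 881 and 1054 CPM in VH. Of the summed AMPA subunit level per kilobase, Gria1 made up a median of 64.1% in DH and 60.7% in VH, and Gria2, whose edited subunit blocks calcium entry, 23.4% and 23.9%. Gria4 was the rarest, at a median of 2.91% of that sum in DH and 5.20% in VH.

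Transcripts with flop and with flip, the exons printed above, also took different proportions of the estimated counts in DH and VH. From the deposited transcript estimates, the share of flop in the estimated counts of flop plus flip transcripts was computed, without dividing by transcript length. For Gria4 it was 49.9, 63.5 and 78.2% (lowest, median, highest) in DH and 55.2, 70.1 and 86.05% in VH. The mean was 63.8 ± 6.79% (SD, n = 36) in DH and 69.4 ± 6.47% in VH, a difference of -5.59 percentage points (two-sided permutation test with 100000 resamples, p = 0.00066, adjusted over 6 exon shares p = 0.00198), and DH was above VH in 9 of 36 codes. For Gria2 the flop share was 54.6, 61.3 and 70.1% in DH and 56.3, 63.8 and 74.7% in VH. The Gria2 means were 61.5 ± 3.10% and 64.5 ± 4.31%, a difference of -3.07 points (permutation p = 0.00054, adjusted p = 0.00198), again with DH above VH in 9 of 36 codes. Both shares were thus lower in DH on average, while single libraries overlapped over most of their range. Gria1 showed 63.8 ± 2.34% in DH and 64.3 ± 2.16% in VH, which did not pass the test (adjusted p = 0.448). The 3 Grin1 cassettes did not pass it either (adjusted p = 0.436, 0.436 and 0.909 for N1, C1 and C2). Transcripts with the amino-terminal N1 exon took 11.1 ± 2.38% of the estimated Grin1 counts used in DH and 10.4 ± 2.67% in VH. Those with C1 took 59.3 ± 2.70% and 59.9 ± 2.21%, and those with C2 49.2 ± 3.79% and 49.1 ± 3.72%. The flop and flip transcript models also differ outside the exon pair, by a further 6345 bases in the Gria2 flop model and by 156 and 301 bases in the Gria4 flop and flip models. The Gria2 models are 10371 bases (flop) and 4026 bases (flip) long. All these shares are therefore of counts assigned to transcript models, and neither of RNA molecules nor of reads over the exons. Transcript Gria2-203, annotated with both exons, was left out of the Gria2 share. Gria3, where Gria3-206 is annotated with both, was not analysed here in this way.

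**Figure D3:**
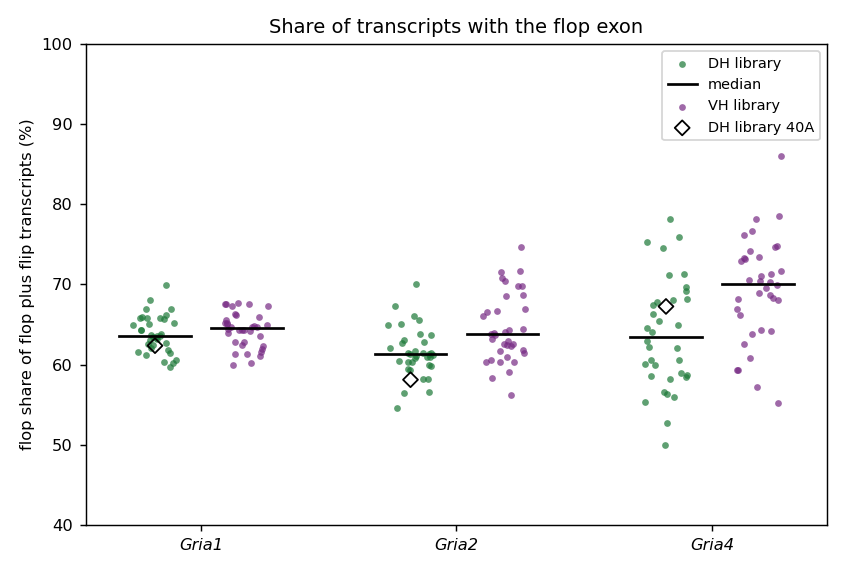
Share of flop in the estimated counts of flop plus flip transcripts, in percent, not divided by transcript length. Values are for 36 DH and 36 VH libraries, on an axis that starts at 40%. Points are libraries, lines are medians and the diamond is DH library 40A. The VH medians of Gria2 and Gria4 lie above the DH medians, and the libraries of both regions overlap.

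All 5 kainate and delta receptor subunits were lower in DH. Grik1 (ENSMUSG00000022935, chr16:87895900-88290265, minus strand), a kainate subunit of interneurons, was at 8.20, 10.5 and 15.2 CPM in DH and 12.1, 16.4 and 20.9 CPM in VH, with DH the higher in 1 of 36 codes. Its log2 fold change was -0.64 (SE 0.0407, adjusted p = 2.03e-22), which is 1.55-fold lower in DH. Grik3 (ENSMUSG00000001985, chr4:125490700-125714173, plus strand), a low-affinity kainate subunit, was at 27.4, 35.97 and 52.6 CPM in DH and 35.01, 44.4 and 61.1 CPM in VH, with a log2 fold change of -0.33 (SE 0.0482, adjusted p = 1.58e-08). The ranges of Grik3 overlapped, and 5 codes had the higher value in DH. Grik2, the kainate subunit of mossy fibre synapses, differed by -0.17 and Grid1, a delta receptor that binds cerebellins, by -0.12 on the log2 scale. Grik5, the high-affinity subunit that needs a partner to form a channel, differed least, by -0.05 (adjusted p = 0.0333), and its call was lost in 4 of 11 alternatives (highest adjusted p = 0.836). Per kilobase Grik5 was nevertheless the most abundant of the family, at medians of 45.7 CPM per kb in DH and 46.2 in VH, and Grik1 the least, at 1.56 and 2.45 CPM per kb. Grid1, Grik2 and Grik3 lay between them, at 10.4, 6.76 and 4.01 CPM per kb in DH.

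Of the 6 metabotropic receptors, Grm2 and Grm3 were higher in DH and Grm5, Grm7 and Grm8 were lower. Grm8 (ENSMUSG00000024211, chr6:27275119-28135178, minus strand), a presynaptic receptor that inhibits release, differed most among them. Its levels were 3.15, 4.52 and 8.23 CPM in DH and 4.32, 7.14 and 10.1 CPM in VH, with a log2 fold change of -0.56 (SE 0.0676, adjusted p = 6.19e-11). The ranges overlapped, and 4 of 36 codes had the higher value in DH. Grm2 (ENSMUSG00000023192, chr9:106643095-106656082, minus strand), a presynaptic inhibitory receptor abundant in dentate granule cells, was at 37.6, 55.4 and 77.6 CPM in DH and 33.8, 44.2 and 72.8 CPM in VH. Its log2 fold change was 0.27 (SE 0.0513, adjusted p = 7.55e-06), the ranges overlapped widely and DH was the higher in 28 of 36 codes. Grm3, its relative in neurons and astrocytes, differed by 0.10, Grm7, a presynaptic receptor of low affinity, by -0.07 and Grm5, which activates phospholipase C, by -0.07 on the log2 scale. Grm4, a further presynaptic inhibitory receptor, differed by -0.13 (95% interval -0.25 to 0.00, adjusted p = 0.0755) with all libraries and by -0.15 (adjusted p = 0.0385) without DH library 40A. Grm5 was the most abundant per kilobase, at medians of 25.4 CPM per kb in DH and 27.4 in VH, and Grm8 the least, at 0.456 and 0.722.

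Of the 10 auxiliary subunits 5 were higher in DH and 3 lower, and some close relatives went opposite ways. Neto1 (ENSMUSG00000050321), an auxiliary subunit of kainate receptors that also associates with NMDA receptors, was at 120.5, 145 and 192 CPM in DH and 177, 223 and 259.7 CPM in VH. DH was the lower in all 36 codes, and without library 40A the DH libraries reached 177.3 CPM, just below the lowest VH library at 177.4 CPM. The log2 fold change of Neto1 was -0.59 (SE 0.0287, adjusted p = 4.08e-28). Its relative Neto2 was higher in DH, by 0.19 on the log2 scale, at medians of 63.2 CPM in DH and 56.2 in VH. With all libraries no member of the set had DH and VH ranges that did not overlap (0.464% of all genes tested did), and without library 40A Grin3a and Neto1 had such ranges (1.14% of all genes tested).

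The cornichons Cnih2 and Cnih3, which slow the closing of AMPA receptors, also went opposite ways. Cnih3 (ENSMUSG00000026514, chr1:181352628-181460641, plus strand) was at 43.1, 53.1 and 69.3 CPM in DH and 59.02, 71.8 and 86.7 CPM in VH, lower in DH in all 36 codes, with a log2 fold change of -0.45 (SE 0.0244, adjusted p = 6.07e-26). Cnih2 (ENSMUSG00000024873, chr19:5092868-5098521, minus strand) was at 352, 474 and 576 CPM in DH and 298, 362 and 500.3 CPM in VH, with a log2 fold change of 0.37 (SE 0.0366, adjusted p = 5.58e-14), and had the highest level per kilobase of the 10 auxiliary genes (medians 346 and 265 CPM per kb). Among the transmembrane AMPA receptor regulatory proteins, Cacng8 (ENSMUSG00000053395, chr7:3390683-3415648, plus strand), the member most typical of hippocampus, was higher in DH. Its levels were 69.8, 89.2 and 112 CPM in DH and 56.98, 70.2 and 94.7 CPM in VH, and its log2 fold change was 0.36 (SE 0.0309, adjusted p = 9.96e-17). Cacng4 was higher in DH by 0.18 on the log2 scale, while Cacng2, the stargazin gene, and Cacng3 differed by -0.02 (95% interval -0.07 to 0.03) and -0.02 (-0.09 to 0.05) and did not pass the test. Shisa9 (ENSMUSG00000022494, chr16:11984113-12270902, plus strand), an AMPA receptor partner known from dentate granule cells, was at 32.2, 43.7 and 52.4 CPM in DH and 44.7, 56.3 and 62.7 CPM in VH, with a log2 fold change of -0.33 (SE 0.0351, adjusted p = 6.71e-13). Its relative Shisa6 was higher in DH by 0.23 on the log2 scale.

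Markers of cell types differed between the regions alongside these genes. Interneuron markers summed to 524 to 719 CPM in DH and 565 to 824 CPM in VH, with 5 of 8 lower in DH and 1 higher. Dentate granule markers summed to 293 to 532 CPM in DH and 209 to 383 CPM in VH, with 6 of 7 higher in DH and 1 lower, and CA2 and CA3 pyramidal markers to 291 to 447 CPM and 209.9 to 334 CPM, with 4 of 5 higher in DH. CA1 pyramidal markers summed to 469.8 to 737 CPM and 497 to 728 CPM, with 2 of 5 higher in DH and 2 lower. All 7 oligodendrocyte markers were higher in DH (5921 to 12286 CPM against 3086 to 7828 CPM), as were all 6 choroid plexus markers (40.3 to 8863 CPM against 23.96 to 2345 CPM), and no marker of these lists was at 0 in all libraries. All 5 microglial markers were higher in DH (summed 142 to 289 CPM against 122 to 259 CPM), and of 5 astrocyte markers 4 were higher and 1 lower (981 to 1410.4 CPM against 840.3 to 1141 CPM), beside Grin2c and Grm3, which astrocytes also express. Markers of neighbouring tissue were listed as well. The median sum of thalamus markers was 72.4 CPM in DH and 105 CPM in VH, with Calb2 and Rora lower in DH and Tcf7l2 higher. For neocortex markers it was 128 and 131 CPM, with Cux2 lower and Lamp5 higher. For striatum markers it was 69.4 and 58.1 CPM, with Rgs9 lower and Adora2a, Drd2 and Ppp1r1b higher. With the choroid plexus level as a covariate 26 of the 28 regional calls remained, and the part of the other cell types and tissues was not tested. In all, 5 members share over 5% of their exon bases with a gene on the opposite strand: Grin3b (32.1%), Grin1 (13.5%), Grin2d (9.66%), Grm2 (9.60%) and Cacng2 (5.86%). Libraries were made with a stranded kit, but the strand setting of the counting is not given in the sources used here, so it is not known how reads of these genes were separated from those of their antisense partners. Grin1os, opposite Grin1, was at most 2.79 CPM in any library. Gm45441, opposite Grin2d, was at 3.72 to 6.46 CPM in DH and 5.95 to 9.15 CPM in VH, lower in DH like Grin2d (log2 fold change -0.50, adjusted p = 4.05e-20).

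Whether the regional difference itself changed with strain label or condition was tested with interaction terms. No member passed edgeR's threshold for strain label (0.00494% of all genes did), for Shock_Cue against HomeCage (0%) or for Cue against HomeCage (0%), and none did with DESeq2. At an unadjusted p under 0.05 edgeR gave 2, 7 and 3 members. The smallest adjusted p values were those of Cnih3 for strain label, at a difference of log2 fold changes of 0.18 (SE 0.0488, adjusted p = 0.705), and of Cacng8 for Shock_Cue, at -0.23 (SE 0.0757, adjusted p = 0.34). The median half-width of the 95% intervals was 0.13 for strain label and 0.15 for both conditions on the log2 scale. A call adjusted over all genes asks for more than an interval that leaves out 0. Changes of the regional difference larger than these half-widths could therefore also go uncalled, like those of Cnih3 and Cacng8.

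Transcript estimates gave 119 tested transcripts of the members, of which 39 were higher in DH and 30 in VH (26.9% of all transcripts tested were called). Some moved apart from their gene. Gria1-204 was at 20.1 ± 20.7 CPM in DH and 37.7 ± 35.2 CPM in VH (SD, n = 36), with a log2 fold change of -0.89 (SE 0.311, adjusted p = 0.0247), although Gria1 as a gene was higher in DH. Its SD was as large as its mean in DH. Grik2-202 was higher in DH, at 19.6 ± 2.68 CPM in DH and 17.7 ± 3.96 CPM in VH, with a log2 fold change of 0.17 (SE 0.04996, adjusted p = 0.00783), against the direction of the Grik2 gene. Grm5-204 likewise went against its gene, at 10.04 ± 2.51 CPM in DH and 8.43 ± 2.77 CPM in VH, with 0.28 (SE 0.0948, adjusted p = 0.0219). Grm2-203 exceeded the difference of Grm2, at 8.51 ± 2.35 CPM in DH and 4.66 ± 2.09 CPM in VH, with 0.93 (SE 0.186, adjusted p = 5.06e-05). Grin1-203, Grin1-204 and Grin1-208, which all carry the N1 exon, were higher in DH by 0.80, 0.77 and 0.77 on the log2 scale, more than Grin1 as a gene, but at no more than 13.9 CPM each in the mean of DH libraries. Grin1-207 carries N1 too and is not among the transcripts named here. The N1 transcripts used for the share above averaged 47.8 CPM in DH and 38.5 CPM in VH together. Their share did not pass the permutation test (adjusted p = 0.436). Neto2-205 (0.56), Gria3-205 (0.47, a retained-intron model) and Grid1-202 (-0.48, a non-coding model) were the other named transcripts, all with means under 3 CPM in both regions. Estimates of transcripts that share most of their sequence trade counts with each other, and the reads were single-end, so these differences are between estimates.

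Other genes of the glutamate synapse were called between the regions as well, beside 63.6% of all genes tested (32.7% higher in DH and 30.9% lower). Of 13 further receptor and auxiliary genes 12 were tested, and 7 were higher in DH and 4 lower. The largest differences of that list, as log2 fold changes, were those of Cacng5, a regulatory relative of Cacng8, at 1.71 (median 21.7 CPM in DH, 5.95 CPM in VH, adjusted p = 3.53e-25), of Syndig1, an AMPA receptor-associated membrane protein, at 0.63 (median 33.9 CPM in DH, 21.8 CPM in VH, adjusted p = 2.64e-26), of Shisa8 at 0.61 (median 1.57 CPM in DH, 1.03 CPM in VH, adjusted p = 2.08e-07), and of Grik4, the other high-affinity kainate subunit, at -0.40 (median 55.01 CPM in DH, 72.3 CPM in VH, adjusted p = 1.63e-16). Of 11 extracellular organisers 4 were higher in DH and 5 lower. Cbln4 and Cbln1, cerebellins that bridge neurexins and delta receptors, differed by -1.33 (median 4.52 CPM in DH, 12.4 CPM in VH, adjusted p = 2.99e-19) and -1.12 (median 3.36 CPM in DH, 8.34 CPM in VH, adjusted p = 2.39e-08). The pentraxin genes Nptx2 and Nptxr, whose products cluster AMPA receptors, went opposite ways, by 0.62 (median 31.6 CPM in DH, 19.8 CPM in VH, adjusted p = 2.91e-20) and -0.54 (median 838 CPM in DH, 1189.7 CPM in VH, adjusted p = 1.01e-19). Of 21 postsynaptic scaffolds and kinases 11 were higher in DH and 9 lower. They included Camk2b, a kinase of potentiated synapses, at 0.47 (median 1462 CPM in DH, 1037 CPM in VH, adjusted p = 4.21e-25), Homer2 at 0.45 (median 141 CPM in DH, 105 CPM in VH, adjusted p = 1.47e-19), Grip1, an AMPA receptor anchor, at -0.43 (median 22.3 CPM in DH, 30.3 CPM in VH, adjusted p = 1.13e-23) and Dlgap2 at 0.33 (median 48.4 CPM in DH, 39.04 CPM in VH, adjusted p = 3.04e-13). Of 8 genes of release, uptake and synthesis 4 were higher in DH and 2 lower, among them the vesicular transporters Slc17a8 at 0.71 (median 4.56 CPM in DH, 2.75 CPM in VH, adjusted p = 1.45e-18) and Slc17a7 at -0.11 (median 1258 CPM in DH, 1348 CPM in VH, adjusted p = 6.33e-06), and Glul, the enzyme that makes glutamine, at 0.12 (median 1524 CPM in DH, 1389 CPM in VH, adjusted p = 1.83e-05).

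The strain labels were compared next, as 6NJ minus 6J over the mean of the 3 conditions, and Nnt and Gabra2 go against these labels. In DH 4 of 31 members passed the threshold, 2 in each direction (14.7% of all genes did, 8.06% higher and 6.64% lower), and in VH 6, of which 4 were higher (9.92% of all genes, 4.87% higher and 5.06% lower). Cnih3 was the clearest. In DH its lowest, median and highest levels were 43.1, 48.8 and 61.2 CPM in libraries labelled 6J and 47.7, 59.05 and 69.3 CPM in those labelled 6NJ, and in VH they were 59.02, 69.5 and 85.8 CPM and 67.1, 75.5 and 86.7 CPM. The ranges overlapped in both regions, with the larger shift of the median in DH. The log2 fold change was 0.28 (SE 0.0358, adjusted p = 4.66e-07) in DH and 0.11 (SE 0.0320, adjusted p = 0.0284) in VH, both past the threshold in every alternative run.

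Grin2d was lower in libraries labelled 6NJ in both regions. Its levels in DH were 10.6, 12.98 and 16.9 CPM under 6J and 8.70, 11.2 and 14.7 CPM under 6NJ, and in VH 15.03, 17.2 and 22.9 CPM and 11.98, 14.9 and 18.9 CPM. The log2 fold change was -0.20 (SE 0.0512, adjusted p = 0.00776) in DH and -0.20 (SE 0.0483, adjusted p = 0.00519) in VH. Neto2 was lower as well, with log2 fold changes of -0.16 (SE 0.0382, adjusted p = 0.00369) in DH and -0.13 (SE 0.0279, adjusted p = 0.00161) in VH, with medians of 65.5 and 59.2 CPM in DH under 6J and 6NJ and 57.9 and 53.2 CPM in VH. Grm2 was higher under 6NJ in DH, with a log2 fold change of 0.24 (SE 0.0661, adjusted p = 0.011), with medians of 50.9 and 60.3 CPM. In VH Cacng8 (0.19, SE 0.0459, adjusted p = 0.00493), Grin2b (0.16, SE 0.0424, adjusted p = 0.0104) and Grin1 (0.09, SE 0.0273, adjusted p = 0.0222) were higher under 6NJ, on the log2 scale, and the same 3 genes differed in DH by 0.06, 0.08 and 0.06 without passing the test. No interaction of region and strain label was called, so these are not shown to differ between regions.

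In home cage animals alone, where the comparison rests on 6 libraries a group, Cnih3 (0.26, SE 0.0619, adjusted p = 0.0285) and Grin2d (-0.35, SE 0.0885, adjusted p = 0.0434) passed in DH (0.931% of all genes did). In VH no member did (1.35% of all genes, 3 members at an unadjusted p under 0.05, and no member called with DESeq2). Without the 6 codes with Lcn2 above 2 CPM, which leaves 4 codes of 6J HomeCage, no member passed in DH HomeCage, and Neto2 and Grm2 lost the call in the mean of conditions (adjusted p = 0.103 and 0.0671). Without library 40A Grin3a (-0.14, adjusted p = 0.0267) and Grik1 (-0.15, adjusted p = 0.0361) were also called lower under 6NJ in DH. Beside these genes, oligodendrocyte markers were higher under 6NJ in DH for 6 of 7 (sum 5921 to 10106 CPM under 6J and 7185 to 12286 CPM under 6NJ) and for 1 of 7 in VH (3086 to 7828 CPM and 4214 to 7186 CPM). In DH 2 of 7 dentate granule markers were higher under 6NJ and 1 lower (sum 293 to 514 CPM under 6J and 357 to 532 CPM under 6NJ), beside the call of Grm2. Of 8 interneuron markers 2 were higher and 1 lower (524 to 673 CPM and 573 to 719 CPM), and 2 of 5 astrocyte markers (991 to 1348 CPM and 981 to 1410.4 CPM) and 2 of 5 neocortex markers (114 to 179 CPM and 109 to 189.8 CPM) were lower. The part of these cell types was not tested. Of the 119 transcripts tested, 11 differed between strain labels over both regions (7.48% of all transcripts), and 7 of them were higher under 6NJ. They included the main transcripts of Cnih3 (Cnih3-201, 0.23), Grin2b (Grin2b-201, 0.13), Grin2d (Grin2d-201, -0.19) and Neto2 (Neto2-201, -0.15) on the log2 scale. Gria2-201, the flop transcript, had a log2 fold change of -0.11, at 449.7 ± 31.03 CPM against 485 ± 30.97 CPM under 6J (SD, n = 36).

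Exposure to the cue or to shock with the cue was set against the home cage over the mean of both strain labels, with 12 libraries per condition and region. In DH the called members all fell: 7 of 31 after Cue (13% of all genes tested were called, 7.45% higher and 5.57% lower) and 5 after Shock_Cue (10%, with 5.52% higher and 4.49% lower). In VH 8 members were higher and 6 lower after Cue (31.5% of all genes, 16.1% higher and 15.4% lower), and 2 higher and 4 lower after Shock_Cue (20.7%, 9.84% and 10.8%). The comparisons of a region share its home cage libraries. The largest called change was that of Cacng8 after Shock_Cue in DH.

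**Figure D4:**
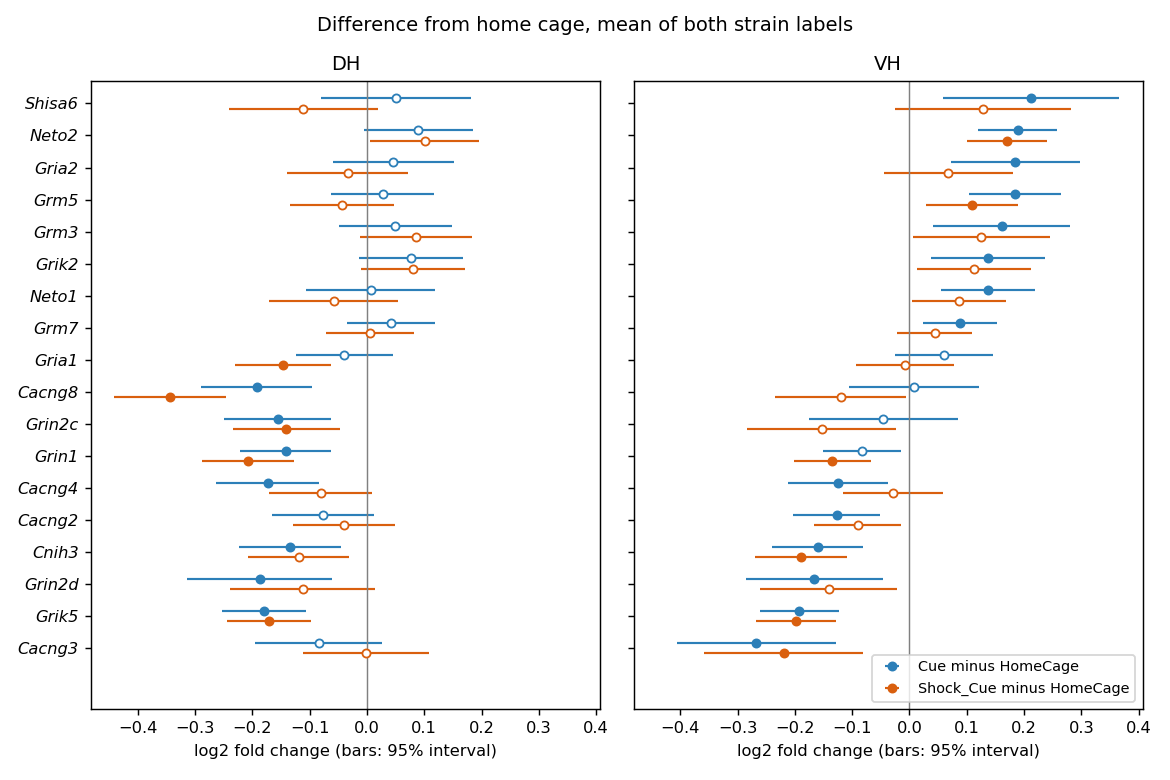
Log2 fold change against HomeCage in DH (left) and VH (right) for the 18 members called in at least 1 of the 4 comparisons, over the mean of both strain labels. Points are estimates, bars are 95% intervals, filled points passed an adjusted p of 0.05 and open points did not. Grik5 lies below 0 with a filled point in all 4 comparisons.

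Grik5 (ENSMUSG00000003378, chr7:25009849-25072346, minus strand), the high-affinity kainate subunit, fell in all 4 comparisons. In DH its lowest, median and highest levels were 238, 254 and 282 CPM in HomeCage, 204, 227 and 245 CPM after Cue and 202, 228 and 255 CPM after Shock_Cue. In VH they were 239, 265 and 312 CPM, 222, 233 and 246 CPM and 220.2, 230.3 and 247 CPM in the same order. All 12 Cue libraries of both regions lay below the home cage median, as did 11 of 12 Shock_Cue libraries in DH and 12 of 12 in VH, and the ranges overlapped at their edges. The log2 fold changes were -0.18 (SE 0.0361, adjusted p = 0.000655) after Cue and -0.17 (SE 0.0361, adjusted p = 0.00158) after Shock_Cue in DH, and -0.19 (SE 0.0341, adjusted p = 7.13e-05) and -0.20 (SE 0.0341, adjusted p = 9.6e-05) in VH. These calls held in all 10 alternatives of each comparison, at log2 fold changes that shrank to -0.09 in DH and -0.07 in VH after Cue with an offset for GC content.

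Cacng8 showed its largest fall after Shock_Cue in DH. Its DH levels were 85.6, 105 and 112 CPM in HomeCage, 79.2, 88.5 and 107 CPM after Cue and 69.8, 79.8 and 90.2 CPM after Shock_Cue, so that Shock_Cue and HomeCage overlapped only between 85.6 and 90.2 CPM. The log2 fold change was -0.34 (SE 0.0478, adjusted p = 5.24e-06) after Shock_Cue and -0.19 (SE 0.0478, adjusted p = 0.00584) after Cue. In VH it was -0.12 and 0.01 without passing the test, and the interaction with region was not called (adjusted p = 0.34 for Shock_Cue). Grin1 fell after Shock_Cue in both regions, with log2 fold changes of -0.21 (SE 0.0393, adjusted p = 0.000468) in DH and -0.13 (SE 0.0335, adjusted p = 0.00447) in VH. Its DH medians were 532, 467 and 457 CPM in HomeCage, Cue and Shock_Cue. Gria1 (log2 fold change -0.15, SE 0.0417, adjusted p = 0.0198) and Grin2c (-0.14, SE 0.0461, adjusted p = 0.0438) were the other members that fell after Shock_Cue in DH. After Cue in DH the others that fell were Cacng4 (-0.17), Grin1 (-0.14), Grin2c (-0.16), Cnih3 (-0.13) and Grin2d (-0.19), on the log2 scale with adjusted p from 0.0074 to 0.0419.

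In VH Neto2 (ENSMUSG00000036902, chr8:85636588-85700924, minus strand) rose after both exposures. Its levels were 44.7, 50.6 and 57.8 CPM in HomeCage, 51.1, 57.8 and 62.9 CPM after Cue and 49.7, 56.7 and 63.3 CPM after Shock_Cue. The log2 fold changes were 0.19 (SE 0.0342, adjusted p = 8.95e-05) and 0.17 (SE 0.0342, adjusted p = 0.000579), and both calls held in all 10 alternatives, at values down to 0.09 and 0.10. Cnih3 fell, from 69.8, 79.02 and 86.7 CPM in HomeCage to 65.6, 71.3 and 81.9 CPM after Cue and 59.02, 67.8 and 81.5 CPM after Shock_Cue. Its log2 fold changes were -0.16 (SE 0.0392, adjusted p = 0.00213) and -0.19 (SE 0.0392, adjusted p = 0.000815), which also held in all 10 alternatives. Grm5 (ENSMUSG00000049583, chr7:87584168-88134907, plus strand) rose by 0.18 after Cue (adjusted p = 0.000625) and 0.11 after Shock_Cue (adjusted p = 0.0473) on the log2 scale, with medians of 259, 291 and 281 CPM in HomeCage, Cue and Shock_Cue. Cacng3 differed by -0.27 and -0.22, with VH medians of 57.7, 47.9 and 49.6 CPM. Neto1 (0.14) and Gria2 (0.18) rose after Cue, and Cacng2 (-0.13) fell. The other calls after Cue were Grik2, Shisa6, Grm7 and Grm3, which were higher by 0.14, 0.21, 0.09 and 0.16, and Cacng4 and Grin2d, at -0.12 and -0.17, all as log2 fold changes.

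Among the members called after Cue in VH, the direction followed the base composition of the transcripts. The 8 members called higher had most abundant transcripts of 36.5% to 49.5% GC, and the 6 called lower 51.2% to 65%. Those of the 17 members not called had 42.7% to 65.1% GC. Over all genes, GC content was taken from the longest annotated transcript instead. In VH after Cue its median was 44.7% for genes called higher and 54.6% for genes called lower, beside 49.5% for genes not called. The medians were 44.7% and 55.2% after Cue in DH, 44.6% and 55.3% after Shock_Cue in VH, and 44.9% and 54.00% after Shock_Cue in DH. For DH against VH they were 48.7% and 50.7%. With an offset for GC content fitted in each library, 7 of the 14 calls after Cue in VH, 2 of 7 after Cue in DH, 4 of 5 after Shock_Cue in DH and 3 of 6 after Shock_Cue in VH remained. Without the 6 codes with Lcn2 above 2 CPM the counts were 4, 1, 4 and 5 in that order. Leaving out code 40A kept 9 of the 14 calls after Cue and 5 of the 6 after Shock_Cue in VH. In DH, leaving out library 40A kept all 7 calls after Cue and all 5 after Shock_Cue. A fit of the compared groups alone kept 10 calls after Cue and 5 after Shock_Cue in VH, and 6 and 5 in DH. How many calls over all genes these runs kept is not given here, so the losses are not shown to be particular to the members. The members called in every alternative were Grik5, Cnih3, Grm5 and Neto2 after Cue in VH, Grik5, Cnih3 and Neto2 after Shock_Cue in VH, Grin1, Cacng8 and Grik5 after Shock_Cue in DH, and Grik5 after Cue in DH.

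**Figure D5:**
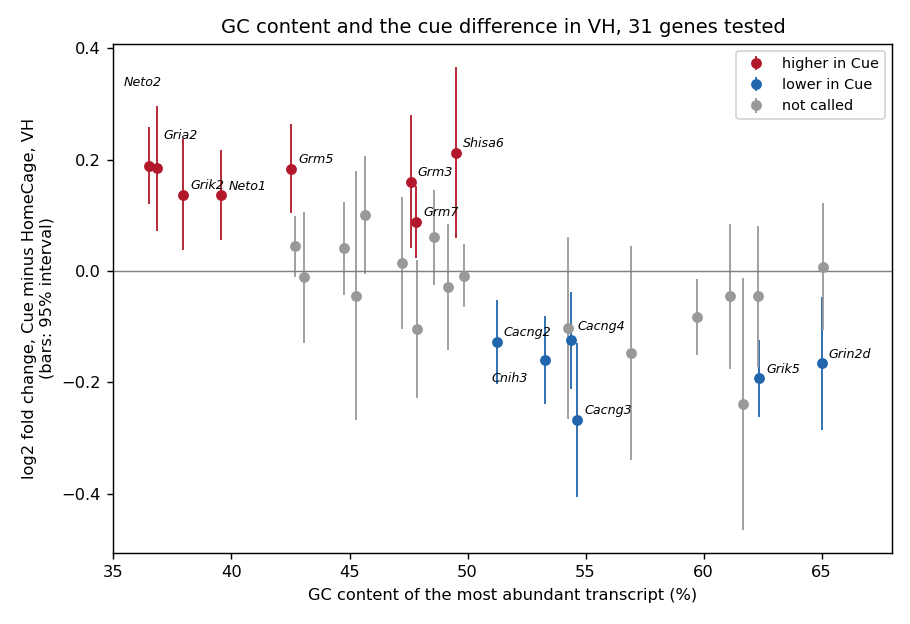
Log2 fold change of Cue minus HomeCage in VH against the GC content of the most abundant transcript, in percent, for the 31 genes tested. Bars are 95% intervals, and colours give the call. Red points (higher in Cue) lie at 36.5% to 49.5% GC and blue points (lower) at 51.2% to 65%.

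Shock_Cue and Cue were also compared directly, which asks what the shock added. No member passed in DH or in VH, with edgeR (0% of all genes in both) or with DESeq2, and 8 and 4 members had an unadjusted p under 0.05 with edgeR. The smallest adjusted p was that of Cacng8 in both, 0.426 in DH at a log2 fold change of -0.15 and 0.678 in VH at -0.13. The response to Cue or to Shock_Cue was not called as different between the strain labels for any member in either region (0% of all genes with edgeR, and no member with DESeq2). At an unadjusted p under 0.05 these interactions gave 3 members for Cue and 1 for Shock_Cue in DH and 0 for both in VH. The median half-width of their 95% intervals was 0.20 in DH and 0.22 in VH on the log2 scale, as large as most responses themselves. Of the marker lists, microglial markers were higher after Cue in VH for 3 of 5 (sum 122 to 213 CPM in HomeCage and 152 to 259 CPM after Cue) and astrocyte markers for 3 of 5 (840.3 to 1019.6 CPM and 896 to 1141 CPM). Of 5 neocortex markers 2 were lower (109 to 176 CPM and 106 to 142 CPM), and of 8 interneuron markers 2 were higher and 1 lower (565 to 784 CPM and 622 to 797 CPM). Their part in the responses was not tested.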

How the data were processed

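Gene counts were deposited as raw counts per gene. HISAT2, featureCounts, kallisto, DESeq2 and GRCm38 are named for this series per the submitters' processing notes, with no versions, and the strand setting of the counting is not given in the sources used here. Transcript values were deposited as estimated counts in the column layout of kallisto, and were rounded to whole numbers here. RNA was extracted with Trizol and columns, and libraries were stranded mRNA libraries read as 75-base single ends, per the labels' protocols.

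Library totals were 30330382 to 56258370 gene counts, and replicate libraries of a group differed by more than sampling noise (chi-square per degree of freedom of at least 4.51 over 180 pairs). Counts were scaled by TMM, filtered with filterByExpr (20255 genes over 72 libraries, 19647 in DH, 19597 in VH) and fitted with edgeR's quasi-likelihood test (edgeR 4.0.16, limma 3.58.1, R 4.3.3), with 1 mean per group and Benjamini-Hochberg adjustment over all genes tested. A call is an adjusted p under 0.05. Regional comparisons used all 72 libraries and the others the 36 libraries of a region. SE is the log2 fold change over the root of the test's F value. The fit was tested on simulated data. Exon shares were compared by permutation in Python 3.11.15 with scipy 1.17.1. Exon sequences, coordinates and GC content came from GENCODE annotation of GRCm38, and GC content was known for 99.8% to 99.9% of genes tested.

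The members and lists were chosen with earlier results of these data known. Values in full were given for the 14 members with the largest regional differences among those called, for the 8 members of smallest p among those called in every other comparison, for the 4 most changed genes of each further list and for the 10 transcripts that departed most from their gene among those called with a mean of at least 1 CPM. The result of 1 gene of the further lists is not reported here. Alternatives were DESeq2 1.42.0, RLE scaling, all genes kept, a minimum mean of 1 CPM, a fit of the compared groups alone, limma's voom with code numbers as random effects, and the code as a block. Those chosen after seeing the data left out library 40A of DH, or code 40A of both regions, or the 6 codes with Lcn2 above 2 CPM, or added choroid plexus markers as a covariate or an offset for the GC content of the longest transcript.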

Additional observations from a re-analysis of the deposited data

Results flagged for a closer look

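Within groups of 6 libraries, 13 of 168 sets of a gene and a group, over the 14 genes named for the regional comparison, held a library far from the others by Dixon's gap test. Chance flags about 1 in 20 groups.

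In DH library 40A of the 6NJ Cue group, 3 genes stood above the rest of the group by that test: Grin3a at 43.9 CPM (the others 22.2 to 27.4), Neto1 at 192 CPM (139 to 155) and Gria4 at 71.1 CPM (48.1 to 56.3). The same library was also the highest of its group for Grin2d, Grik1, Grik3, Grm8, Cnih3 and Shisa9, and the lowest for Grin2a, Grin2c, Grm2, Cacng8 and Cnih2, without standing apart by the test. The former are genes with higher levels in VH and the latter genes with higher levels in DH. In this library several single ventral markers, such as Trhr and Dcn, lay among the VH libraries.

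Cnih3 was 69.3 CPM in 37A of DH 6NJ Shock_Cue (the others 53.0 to 59.1) and 81.5 CPM in 33C of VH 6J Shock_Cue (59.0 to 67.0). Grin2a was 346 CPM in 35B of VH 6J HomeCage (267 to 289), and Grin2d was 13.7 CPM in 41A of DH 6NJ HomeCage (10.6 to 11.6). In VH, 41A of the 6NJ HomeCage group had the highest Cnih2, at 500.3 CPM (341 to 368), and the lowest Shisa9, at 46.1 CPM (55.2 to 60.1). Shisa9 was also low in 32C of VH 6J Cue, at 44.7 CPM (56.7 to 60.2). Grm2 was high in 3 libraries, at 64.3 CPM in 34A of DH 6J Cue (50.7 to 55.5), 59.4 CPM in 36B of VH 6J HomeCage (41.9 to 47.6) and 66.0 CPM in 37B of VH 6NJ Shock_Cue (39.4 to 44.2).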

How the results depend on the processing

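No call reversed under any alternative run. Of the members named in each comparison, over all settings, 707 values kept their side of the threshold, 68 lost it and 2 gained it, both Grm4 in DH against VH (-0.15, adjusted p = 0.0385, without DH library 40A, and -0.16, adjusted p = 0.0274, without code 40A in both regions). Of the 28 regional calls 25 held in all 11 alternatives. Grik5 lost its call in 4, Grm5 with the choroid plexus covariate and Gria3 with the GC offset. Beside Grm4, members called in an alternative alone were Grin3a (adjusted p = 0.0267) and Grik1 (0.0361) between strain labels in DH without library 40A, Cacng8 in VH HomeCage (given with the counts that moved), Grid1 after Shock_Cue in DH (5 alternatives, adjusted p = 0.0231 to 0.0477, 0.052 in the fit reported), Grin1 after Cue in VH (4 alternatives, adjusted p = 0.0274 to 0.0488, 0.0554 in the fit reported) and Grm2 after Shock_Cue in VH (adjusted p = 0.0497 with voom). The causes were not tested.

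Counts of members called that moved by over 1.5 times were these. Without the codes with Lcn2 above 2 CPM, 2 members were called between strain labels in DH over the mean of conditions, 0 in DH HomeCage and 1 in VH HomeCage (Cacng8, 0.36, adjusted p = 0.0136), 1 after Cue in DH and 4 after Cue in VH. With the GC offset, 2 were called after Cue in DH, 7 after Cue in VH and 3 after Shock_Cue in VH. With no low-count filter, 1 was called between strain labels in DH HomeCage. The shares of all genes called in the same runs are not given here, so these counts do not set the members apart from other genes.

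With the code as a replicate block the regional comparison again called 28 members and its interactions 0, and 65 transcripts in place of 69. The labels do not say that a code is 1 mouse. For DH and VH libraries of a code the correlation of their deviations from the group means was -0.19 to 0.34 (median 0.0945), above 0.1 for 16 of 36 codes. As a hint of pairing from the data and not from the design, 17 of 36 codes correlated best with their own. The correlation within code numbers, as voom estimated it, was 0.02 over both regions, -0.04 in DH and -0.03 in VH. Between 30330382 and 56258370 counts a library, Grin3b at under 0.31 CPM was too low to test.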
